A study of Mus musculus with 6 samples.

Results

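The genes of the TGF-β signalling core were followed in NMuMG cells, a line of mouse mammary gland epithelium, that received TGF-β with or without 2APB. The set was 10 named genes of the 18512 entries in the count table, named by their role: the ligand genes Tgfb1, Tgfb2, Tgfb3 and Inhba, the receptor genes Tgfbr1, Tgfbr2 and Tgfbr3, and the effector SMAD genes Smad2, Smad3 and Smad4. All 10 had a row and all 10 passed the minimum of 20 normalized counts on average that 13353 entries reached. The groups were DMSO, the vehicle, TGF-β at 5 ng/ml, and TGF-β at 5 ng/ml with 2APB at 50 uM (TGF-β+2APB), with RNA of 2 biological replicates sequenced in each. 2APB is a small molecule that acts on store-operated calcium channels. Treatment lasted 24 h, and whether 2APB was added with TGF-β or ahead of it was not settled from the sources. All groups were starved of serum for 4 h before treatment. No group with 2APB alone was analysed here, so an effect of 2APB without TGF-β cannot be told apart from one on the TGF-β response. The whole experiment rests on 1 cell line.

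TGF-β is secreted in a latent complex and, once released, binds the type II receptor TGFBR2, which then recruits and phosphorylates the type I receptor TGFBR1. TGFBR1 phosphorylates SMAD2 and SMAD3, and these join SMAD4 and move to the nucleus to change transcription. TGFBR3, or betaglycan, is a co-receptor that presents ligand, TGF-β2 above all, to the type II receptor. INHBA is the subunit of activin A, a related ligand that also signals to SMAD2 and SMAD3 through its own receptors. In mammary epithelium this pathway restrains growth and can drive an epithelial-mesenchymal transition, for which NMuMG cells are a common model. The TGF-β protein added to the medium is not seen by these counts, which measure the cells' own mRNA.

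The libraries held 71840570 to 79473182 counts on genes. Summed normalized counts of 5 markers of mammary epithelium (Cdh1, Epcam, Krt8, Krt18 and Krt19) ran from 528300 to 1375000, and all 5 changed with TGF-β by edgeR, Krt8 and Krt18 upwards and the others downwards. Of 5 leukocyte markers, Ptprc, Itgam and Emr1 were detected in every library and Cd3e only in replicate 2 of TGF-β+2APB, at 2 counts. The summed normalized counts of these markers reached 1908 in replicate 2 of TGF-β+2APB and 61.37 in its replicate 1, against 336.8 to 463.9 in DMSO and 91.31 to 155.8 with TGF-β. Summed markers of endothelium stayed at or under 49.32, and the 1 adipocyte marker with a row (Adipoq) at or under 2.066. The sum of 3 fibroblast markers was at most 90.9 in DMSO and at least 618.4 in the treated libraries, in which Pdgfrb made up most of it. The part of any of these cells in the results below was not tested. Replicates were closest in DMSO, where the log2 difference between them had an SD of 0.368 over all tested genes, against 0.612 with TGF-β and 0.827 with TGF-β+2APB. In bulk RNA, fewer cells of a type and less RNA per cell cannot be told apart.

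All 4 ligand genes changed with TGF-β: Tgfb1, Tgfb2 and Inhba rose and Tgfb3 fell. Once 2APB was added Tgfb2 rose further and Tgfb3 rose part of the way back, while the differences of Tgfb1 and Inhba between the treatments were not called. Among receptors and SMADs the called changes with TGF-β were small rises of Tgfbr2 and Smad3, both of which fell once 2APB was added. Tgfbr3 was lower in all 4 treated libraries than in DMSO and was called with TGF-β+2APB against DMSO. Tgfbr1, Smad2 and Smad4 were called in no comparison. By edgeR's quasi-likelihood test at a Benjamini-Hochberg FDR of 0.05 or less, 6 of the 10 genes were called with TGF-β against DMSO (60%), 5 higher and 1 lower, where 41.5% of all tested genes were called (21.8% higher, 19.7% lower). With TGF-β+2APB against DMSO 5 of 10 were called, 3 higher and 2 lower, against 52.8% of all genes (25.6% higher, 27.2% lower). Between TGF-β+2APB and TGF-β themselves 4 were called, 2 higher and 2 lower, against 17.5% (6.58% higher, 10.9% lower). The median log2 change of the 10 genes was 0.29, 0.08 and 0 in that order, beside -0.01, 0 and 0 over all tested genes. The TGF-β and TGF-β+2APB comparisons with DMSO share the DMSO libraries, and the TGF-β libraries enter the direct comparison too. A call is described below together with 14 other settings at the same FDR threshold. These were other scalings, no filter, DESeq2, halved counts, only the 4 libraries compared, the replicate number as a block, this block with the TGF-β+2APB numbers exchanged (chosen after the data had been seen), and each library left out. The stricter FDR of 0.01 is not among the 14. At that threshold Tgfb2 alone of the 4 genes called between the treatments was still called, where 4.5% of all tested genes were.

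**Figure D1:**
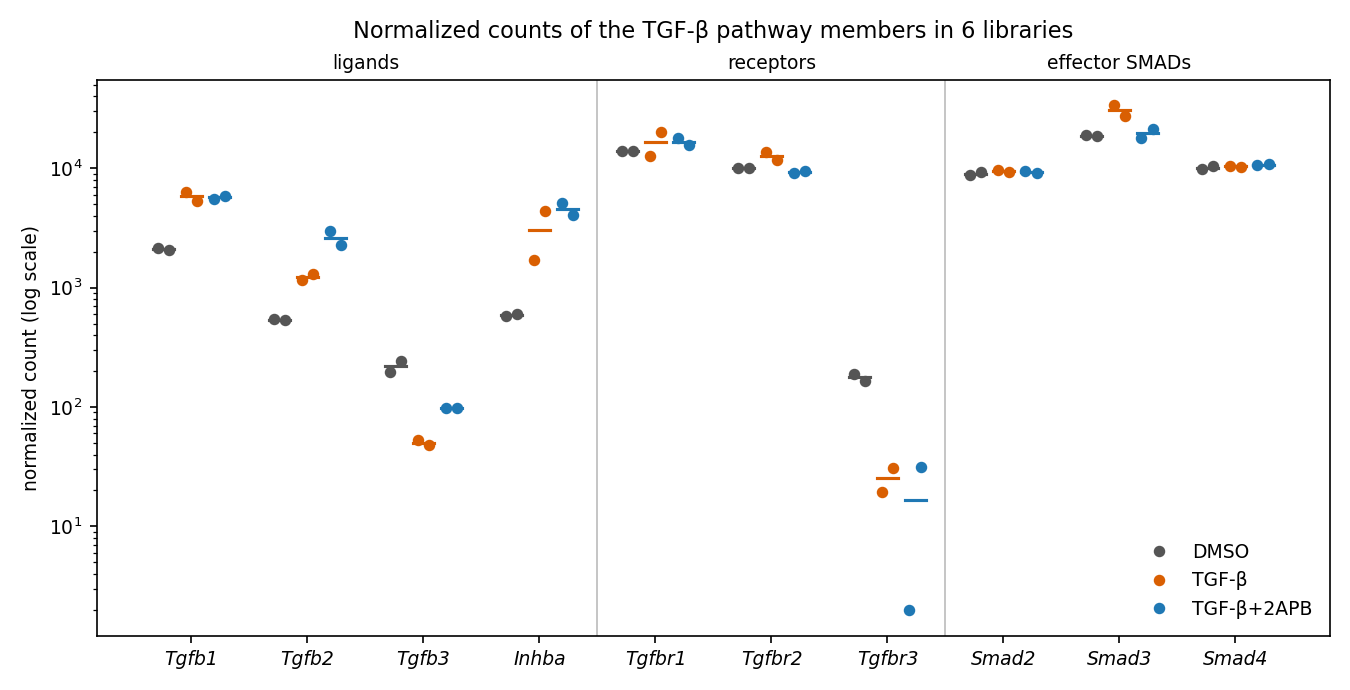
Normalized counts of the 10 genes on a log axis, with 1 point per library and a bar at the mean of the 2 libraries of a group (grey DMSO, orange TGF-β, blue TGF-β+2APB). Tgfb1, Tgfb2 and Inhba lie higher in all 4 TGF-β-treated libraries than in DMSO, Tgfb3 and Tgfbr3 lie lower, and Smad2 and Smad4 stay between 8827 and 10780.

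Of the 3 ligand genes that rose with TGF-β, Tgfb2 was called between the treatments and Tgfb1 and Inhba were not, a difference between genes that was not tested. To set these genes side by side, the 250 bases before the start site of each are shown, from RefSeq on GRCm38.p6. Capitals mark the letters of 4 motifs searched on both strands: CAGAC, the core of the element that SMAD3 and SMAD4 bind, GGGCGG, the GC box, TATAAA, the TATA box, and the AP-1 site TGACTCA. The windows are chr7:25686752-25687001 on the plus strand (Tgfb1), chr1:186705990-186706239 on the minus strand (Tgfb2) and chr13:16011601-16011850 on the plus strand (Inhba).
Tgfb1: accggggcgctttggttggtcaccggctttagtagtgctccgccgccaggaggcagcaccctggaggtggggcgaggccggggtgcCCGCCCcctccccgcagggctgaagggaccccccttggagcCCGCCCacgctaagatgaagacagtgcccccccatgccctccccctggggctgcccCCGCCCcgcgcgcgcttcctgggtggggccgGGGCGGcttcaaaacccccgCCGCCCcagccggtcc
Tgfb2: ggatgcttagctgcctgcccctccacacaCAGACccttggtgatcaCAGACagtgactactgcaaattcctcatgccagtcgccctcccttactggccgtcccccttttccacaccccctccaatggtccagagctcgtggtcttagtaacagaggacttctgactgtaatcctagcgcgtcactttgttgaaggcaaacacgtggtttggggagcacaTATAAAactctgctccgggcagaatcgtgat
Inhba: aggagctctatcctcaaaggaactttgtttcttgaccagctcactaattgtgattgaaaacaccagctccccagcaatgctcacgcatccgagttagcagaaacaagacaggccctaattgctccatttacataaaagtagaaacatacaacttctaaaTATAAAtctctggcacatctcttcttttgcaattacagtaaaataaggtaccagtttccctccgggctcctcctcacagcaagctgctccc
The Tgfb1 window held 5 GC boxes, no TATAAA and no CAGAC, and 75.2% of its bases were G or C. The Tgfb2 window held 2 CAGAC matches, the nearer of them 199 bases before the start, and a TATAAA 25 bases before it, with no GC box and 53.6% G or C. The Inhba window held a TATAAA 85 bases before the start and no match to CAGAC or GGGCGG, with 43.2% G or C. None of the 3 held the AP-1 letters. Over all 32851 windows of this length, 42.2% held CAGAC, 32.7% GGGCGG, 12.4% TATAAA and 4.46% TGACTCA. Such matches describe letters and show no binding, and windows could be matched for 6 of the 10 genes. No match in the 3 printed windows overlapped another. The others with a window were Smad3 with 2 GC boxes, Tgfbr2 with 1 CAGAC, and Tgfbr1, with 2 GC boxes at the first of its annotated starts and 1 CAGAC at the other.

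Tgfb1 encodes the ligand isoform most often studied in epithelial-mesenchymal transition and lies on chromosome 7 from 25687002 to 25705077 (GRCm38). Its normalized counts were 2158 and 2074 under DMSO, 6346 and 5315 under TGF-β, and 5557 and 5885 under TGF-β+2APB. All 4 treated libraries stood above both DMSO libraries, and the treated groups overlapped each other. Groups that do not overlap were common here, at 72.5% of tested genes between TGF-β and DMSO, 86% between TGF-β+2APB and DMSO, and 58% between the treatments. The rise with TGF-β was a log2 change of 1.46 (SE 0.11, 2.76-fold, FDR 0.000321 by edgeR), and with TGF-β+2APB it was 1.43 (SE 0.11, FDR 0.000204 by edgeR). Both rises were called in all 14 other settings. From TGF-β to TGF-β+2APB the log2 change of Tgfb1 was -0.03 (SE 0.10, FDR 0.877 by edgeR), and its sign turned to 0.11 without replicate 1 of TGF-β, with no call in any of the 14.

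Tgfb2 encodes the isoform that binds TGFBR2 poorly without betaglycan, and lies on chromosome 1 from 186622792 to 186705989. It was counted at 548.4 and 531 (normalized) under DMSO, 1151 and 1305 under TGF-β, and 2978 and 2271 under TGF-β+2APB, so that the 3 groups followed each other without overlap. Tgfb2 rose by 1.19 on the log2 scale with TGF-β (SE 0.15, 2.28-fold, FDR 0.00233 by edgeR) and by a further 1.10 once 2APB was added (SE 0.15, 2.14-fold, FDR 0.00958 by edgeR). Against DMSO the rise with both agents was 4.86-fold (log2 2.28, SE 0.16, FDR 0.000165 by edgeR). These were the only rises among the 10 genes that were called in all 3 comparisons, and each of the 14 other settings called each of them. Without replicate 1 or 2 of TGF-β+2APB the further rise was 0.86 or 1.28. An antisense gene, Gm29491, shares 124 of the 5791 exonic bases of Tgfb2, and since the strand setting of the counting is not stated its reads could not be told apart there.

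Tgfb3, the third isoform, lies on chromosome 12 from 86056745 to 86079041 and moved the other way. Its normalized counts were 194.6 and 243.8 under DMSO, 52.59 and 47.73 under TGF-β, and 98.99 and 98.65 under TGF-β+2APB. The TGF-β libraries were thus the lowest and the TGF-β+2APB libraries lay between them and DMSO. The fall with TGF-β was a log2 change of -2.12 (SE 0.24, 4.36-fold lower, FDR 0.00153 by edgeR), called in all 14 other settings. From TGF-β to TGF-β+2APB Tgfb3 rose by 0.98 (SE 0.24, 1.97-fold, FDR 0.044 by edgeR), a call that 9 of the 14 other settings lost, among them each library left out (edgeR FDR 0.0611 to 0.134). Against DMSO it was lower with both agents, with a log2 change of -1.15 (SE 0.23, FDR 0.00865 by edgeR), or -0.98 with an edgeR FDR of 0.0819 without replicate 2 of DMSO. Up to 257 of its 3383 exonic bases overlap a transcript on the other strand.

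Inhba, on chromosome 13 from 16011851 to 16031621, had the largest rise of the 10 genes with TGF-β and the least even replicates among the ligands. It stood at 575.9 and 601.2 normalized counts under DMSO, 1693 and 4350 under TGF-β, and 5110 and 4037 under TGF-β+2APB. The treated libraries were all above DMSO, but replicate 2 of TGF-β lay within the range of TGF-β+2APB and replicate 1 far under it. The log2 change with TGF-β was 2.36 (SE 0.44, 5.13-fold, FDR 0.00863 by edgeR). It was 2.89 without replicate 1 of TGF-β and 1.52 without replicate 2, and the call was lost without replicate 1 or 2 of DMSO (edgeR FDR 0.0648 and 0.0593). With TGF-β+2APB the rise was 2.96 (SE 0.45, 7.77-fold, FDR 0.00291 by edgeR) and was called in all 14 other settings. Between the treatments the log2 change was 0.60 (SE 0.41, FDR 0.366 by edgeR). The TGF-β replicates decided this value, which was 0.08 without replicate 1 of TGF-β and 1.43 without replicate 2 (edgeR FDR 0.0036, called).

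Tgfbr1 encodes the type I receptor kinase and lies on chromosome 4 from 47353222 to 47414931. Its normalized counts were 13890 and 13840 under DMSO, 12650 and 20250 under TGF-β, and 17850 and 15600 under TGF-β+2APB. The TGF-β replicates thus lay on both sides of DMSO. No comparison was called, with a log2 change of 0.25 with TGF-β (SE 0.22, FDR 0.408 by edgeR), 0.27 with both agents (SE 0.22, FDR 0.341 by edgeR) and 0.02 between the treatments (SE 0.22, FDR 0.954 by edgeR). The TGF-β replicates decided the direction. Without replicate 1 of TGF-β the change from DMSO was 0.55 (edgeR FDR 0.0071, called) and without replicate 2 it was -0.13. Between the treatments it was -0.27 without replicate 1 of TGF-β, -0.10 without replicate 1 of TGF-β+2APB, and 0.40 without replicate 2 of TGF-β (edgeR FDR 0.0224, called). The log2 change with both agents against DMSO was called without replicate 1 or 2 of TGF-β, at 0.28 and 0.27 (edgeR FDR 0.0271 and 0.0224), and with only the 4 libraries compared (edgeR FDR 0.0243).

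Tgfbr2 encodes the type II receptor that binds ligand first and lies on chromosome 9 from 116084293 to 116175360. It had 10040 and 10100 normalized counts under DMSO, 13600 and 11790 under TGF-β, and 9091 and 9387 under TGF-β+2APB. Both TGF-β libraries stood above all others. The rise with TGF-β was small, a log2 change of 0.33 (SE 0.09, 1.26-fold, FDR 0.0297 by edgeR), and the fall once 2APB was added was 1.37-fold (log2 -0.46, SE 0.09, FDR 0.0233 by edgeR). With both agents Tgfbr2 stood at a log2 change of -0.12 from DMSO (SE 0.09, FDR 0.292 by edgeR), which passed the threshold only without replicate 2 of TGF-β (FDR 0.0486 by edgeR). The calls of the rise and of the fall were each lost in 6 of 14 other settings. Leaving out replicate 1 or 2 of DMSO gave an edgeR FDR of 0.175 and 0.163 for the rise and 0.0858 and 0.0868 for the fall. Leaving out replicate 1 or 2 of TGF-β+2APB gave 0.0702 and 0.0701 for the rise and 0.146 and 0.121 for the fall.

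Tgfbr3, the betaglycan gene, lies on chromosome 5 from 107106570 to 107289629 and had the fewest counts of the 10 genes. An annotated transcript on the same strand, Gm43422, shares 297 of its 6545 exonic bases. Its counts as deposited were 194 and 160 under DMSO, 20 and 30 under TGF-β, and 2 and 32 under TGF-β+2APB. All 4 treated libraries lay far under DMSO, while the TGF-β+2APB replicates fell on both sides of the TGF-β libraries. With TGF-β the log2 change was -2.81 (SE 0.95, 7.01-fold lower), which edgeR did not call (FDR 0.0612). It was called in 5 of 14 other settings, with an edgeR FDR of 0.00221 and 0.00196 without replicate 1 or 2 of TGF-β+2APB and an FDR of 0.0168 by DESeq2. With TGF-β+2APB Tgfbr3 stood 10.5-fold lower than in DMSO (log2 -3.4, SE 0.98, FDR 0.0308 by edgeR). This log2 change was -2.5 without replicate 1 of TGF-β+2APB and -6.38 without replicate 2, and the call was lost without replicate 1 or 2 of DMSO (edgeR FDR 0.107 and 0.0922). Between the treatments the log2 change was -0.59 (SE 0.97, FDR 0.712 by edgeR), 0.29 without replicate 1 of TGF-β+2APB and -3.59 without replicate 2 (edgeR FDR 0.0351, called). Replicate 2, with the higher Tgfbr3 count, was also the library in which the leukocyte markers were highest, with Ptprc at 752 counts against 36 in replicate 1, and their part in the Tgfbr3 value was not tested.

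Smad3 encodes the effector that binds DNA directly and lies on chromosome 9 from 63646767 to 63757994. Its normalized counts were 18860 and 18680 under DMSO, 33700 and 27180 under TGF-β, and 17990 and 21440 under TGF-β+2APB. As for Tgfbr2, the TGF-β libraries were the highest, and here the TGF-β+2APB libraries overlapped DMSO. Smad3 rose with TGF-β by a log2 change of 0.70 (SE 0.13, 1.62-fold, FDR 0.00936 by edgeR) and once 2APB was added fell 1.54-fold (log2 -0.63, SE 0.13, FDR 0.0301 by edgeR). The log2 change with both agents against DMSO was 0.07 (SE 0.13, FDR 0.684 by edgeR), and -0.04 without replicate 2 of TGF-β+2APB. Without replicate 1 or 2 of DMSO the edgeR FDR of the rise was 0.0679 and 0.0691, and that of the fall 0.086 and 0.0868. Without replicate 1 or 2 of TGF-β+2APB that of the fall was 0.15 and 0.0583, and 6 of 14 other settings lost the call of the fall.

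Smad2, whose main protein form needs its partners to bind DNA, and Smad4, the SMAD shared with the bone morphogenetic protein branch, both lie on chromosome 18. Smad2 was counted at 8827 and 9219 (normalized) under DMSO, 9609 and 9311 under TGF-β, and 9517 and 9044 under TGF-β+2APB. Smad4 was counted at 9883 and 10330 under DMSO, 10510 and 10200 under TGF-β, and 10660 and 10780 under TGF-β+2APB. Their 6 log2 changes lay between -0.03 and 0.08 with an SE of 0.07 each, and none of the 14 other settings called any of them. Smad3 was thus the only effector SMAD gene with a called change, although the difference between the 3 SMAD genes was not itself tested.

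**Figure D2:**
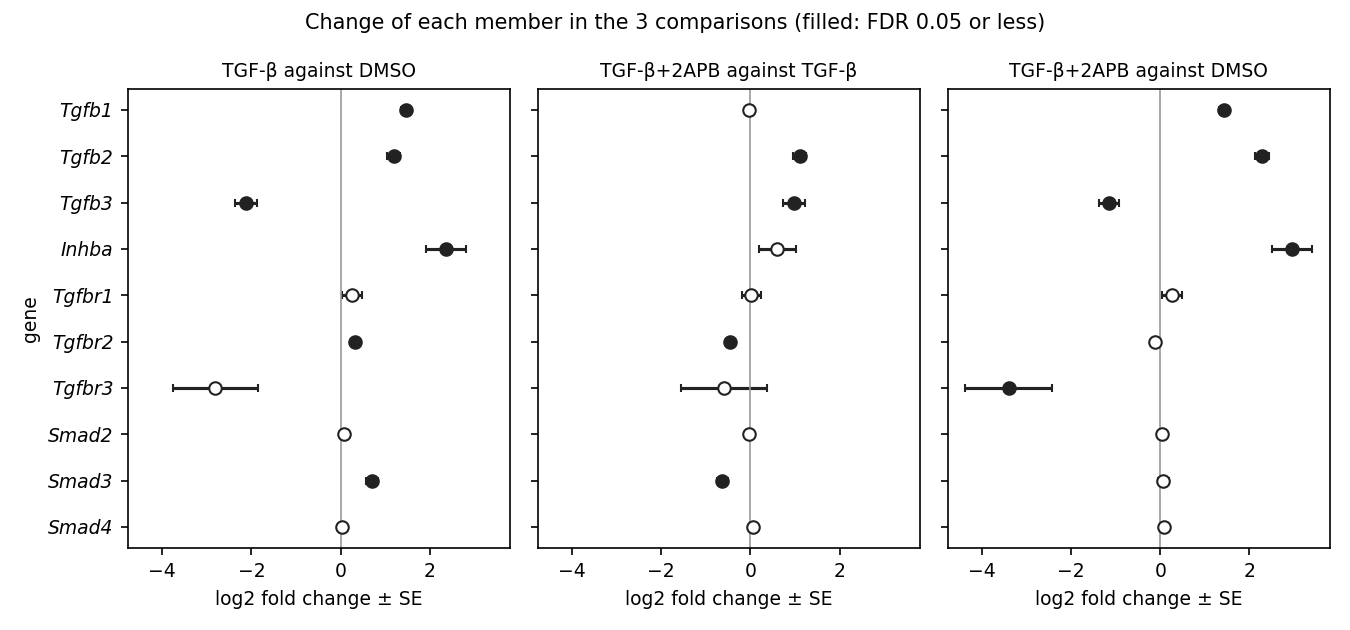
Log2 fold change of each gene (horizontal axis, bars show the SE from edgeR) in the 3 comparisons, with filled points for an FDR of 0.05 or less. Tgfb2 is the only gene with a filled point to the right of 0 in all 3 panels, and Tgfbr2 and Smad3 are filled on opposite sides of 0 in the first 2 panels.

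To compare levels between genes, normalized counts were divided by the exonic length of each gene. In DMSO the order per kb was Smad3 at 3390 ± 22.7 (SD, n = 2), Smad4 at 2720 ± 86 (SD, n = 2), Tgfbr1 at 2120 ± 5.62 (SD, n = 2), Tgfbr2 at 1230 ± 5.44 (SD, n = 2) and Smad2 at 1030 ± 31.5 (SD, n = 2). Below them stood Tgfb1 at 420 ± 11.8 (SD, n = 2), Tgfb2 at 93.2 ± 2.13 (SD, n = 2), Inhba at 92.1 ± 2.8 (SD, n = 2), Tgfb3 at 64.8 ± 10.3 (SD, n = 2) and Tgfbr3 at 27.2 ± 2.74 (SD, n = 2). Tgfb2 and Inhba, neighbours in this order, did not differ beyond their spread, but with the length of the longest transcript they stood at 105 ± 2.4 and 92.1 ± 2.8 per kb (SD, n = 2). With TGF-β the level per kb of Tgfb1 (1160 ± 145, SD, n = 2) came within its spread of Smad2 (1080 ± 24, SD, n = 2). Whether they stood apart rests on the length used, since with the longest transcript Tgfb1 stood at 2270 ± 283 and Smad2 at 1170 ± 26 per kb (SD, n = 2). Tgfbr1 at 2520 ± 822 (SD, n = 2) could there not be ordered against Smad4 at 2790 ± 58.2 (SD, n = 2). With TGF-β+2APB, Tgfb1 and Tgfbr2 both stood at 1130 per kb (SD 46 and 25.6, n = 2; 2220 and 1140 with the longest transcript), Inhba at 716 ± 119 (SD, n = 2) and Tgfb2 at 453 ± 86.3 (SD, n = 2). Receptor and SMAD mRNAs other than Tgfbr3 were thus above the level of each ligand mRNA in DMSO with either length. In the treated groups the mean level of Tgfb1 lay above that of Smad2, but with TGF-β only within its spread when the length of all exons was used.

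The shares of the 3 TGF-β isoforms in their summed level per kb do not depend on the scaling between libraries. Tgfb1 made up 73.8% and 71.5% of the sum under DMSO, 85.4% and 81.5% under TGF-β, and 67% and 73.5% under TGF-β+2APB. Tgfb2 made up 16.3% and 15.9%, then 13.5% and 17.4%, and then 31.2% and 24.7%, so that its share was highest in both libraries with 2APB. The Tgfb3 share was 9.91% and 12.5% under DMSO, 1.06% and 1.09% under TGF-β, and 1.78% and 1.84% under TGF-β+2APB. Within the SMADs, the ratio of Smad3 to Smad2 per kb was 3.39 and 3.21 under DMSO, 5.56 and 4.62 under TGF-β, and 3 and 3.76 under TGF-β+2APB. The TGF-β libraries held the highest ratios, while TGF-β+2APB lay on both sides of DMSO. The shares and ratios are given as descriptions, with no test. The exonic length of Tgfb1 is 5042 bases over all its exons and 2573 bases in its longest transcript, and with the latter its share in DMSO was 82.8%.

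**Figure D3:**
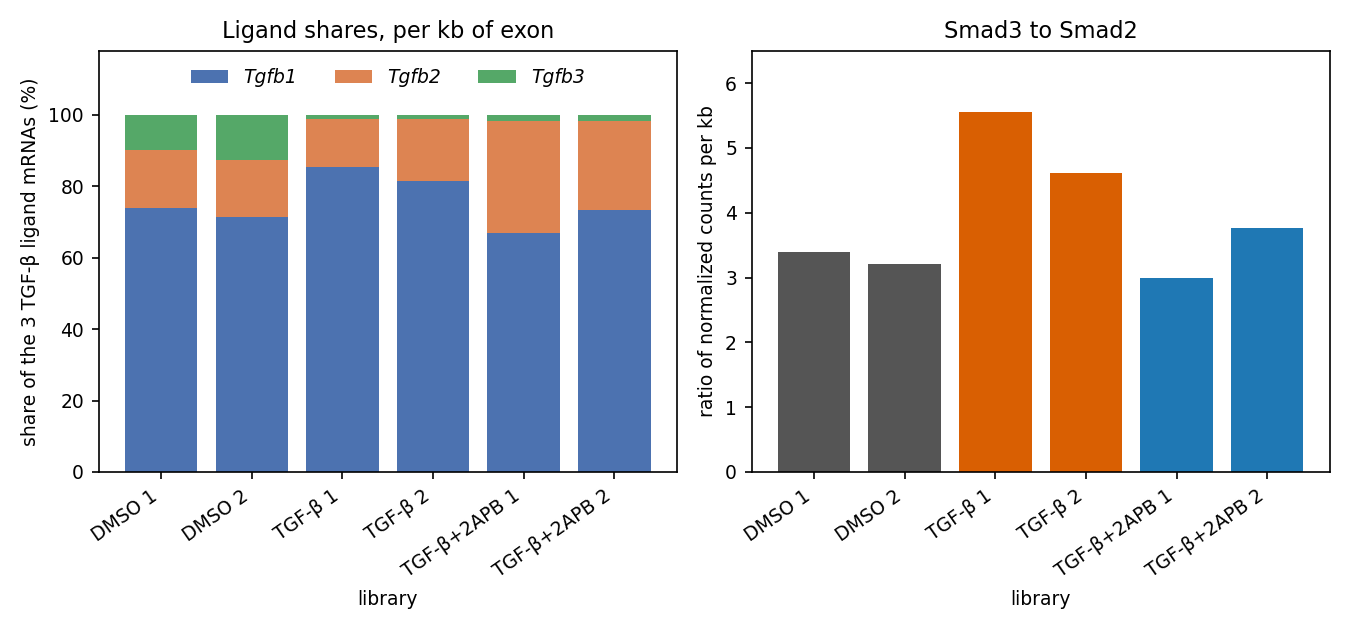
Left, share of Tgfb1, Tgfb2 and Tgfb3 in their summed normalized count per kb of exon (percent, stacked bars, 1 bar per library); right, ratio of Smad3 to Smad2 per kb in each library, with bars from 0. The Tgfb3 share drops from 9.91% and 12.5% in DMSO to under 2% in the treated libraries, and the Tgfb2 share is highest with TGF-β+2APB.

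Beyond these 10 genes, 58 further genes of the pathway were listed by role, with counts given per role. Of these, 4 had no row and 5 had too few counts, which left 49. Ltbp2, Fbn1, Fstl3 and Acvrl1 passed the count minimum only through treated libraries, so that they had to be high there, and the counts by role leave them out. Of the other 45 genes, 32 were called with TGF-β against DMSO, 27 higher and 5 lower, with a median log2 change of 0.74, where 21.8% of all tested genes were called higher and 19.7% lower. On addition of 2APB 12 were called, 9 higher and 3 lower, beside 6.58% and 10.9% of all tested genes. Both agents together against DMSO gave 31, of which 26 were higher and 5 lower, beside 25.6% and 27.2%. Latency and activation genes, whose products store TGF-β or release it, were called higher in 8 of 9 with TGF-β, beside 21.8% of all tested genes. Thbs1, an activator of latent TGF-β, rose 77.1-fold (log2 6.27, SE 0.12, FDR 2.12e-05 by edgeR). Ltbp2, a latent TGF-β binding protein, was counted 6 and 0 times under DMSO, and 226 and 244 times under TGF-β. Fbn1, which encodes the microfibril protein fibrillin-1, had no count in DMSO and was at least 13.4-fold higher with TGF-β and at least 18.3-fold higher with both agents, computed against 3 counts per DMSO library. Of the 9 latency and activation genes, 2 were called between the treatments, both higher. Of all tested genes 17.5% were called there, 6.58% higher, and the median log2 change of the 9 genes was 0.07. The 2 were Lrrc32, which holds latent TGF-β at the cell surface and rose by a further 1.13 (SE 0.12, FDR 0.00559 by edgeR), and Itgb6, a subunit of an integrin that releases it, which rose by 0.81 (SE 0.17, FDR 0.0304 by edgeR).

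Ligand traps, which bind ligands outside the cell, were called higher with TGF-β in 3 of 3, beside 21.8% of all tested genes, and in 1 of 3 with both agents against DMSO, beside 25.6%. Fst, the activin trap follistatin, rose 5.64-fold (FDR 0.00013 by edgeR) and stood at a log2 change of 2.45 with both agents (SE 0.13). Lefty1 rose 1.64-fold, and Bgn, the proteoglycan biglycan, 1.99-fold. Fstl3, left out of these counts, was counted 4 times in each library under DMSO, 10 and 18 times under TGF-β, and 58 and 42 times under TGF-β+2APB. Bgn fell once 2APB was added by 1.05 on the log2 scale (SE 0.25, FDR 0.0414 by edgeR). Inhbb, the other activin subunit, rose 6.72-fold with TGF-β (FDR 0.000147 by edgeR) and fell by 0.69 once 2APB was added (SE 0.14, FDR 0.0282 by edgeR), while the change of Inhba between the treatments was not called.

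Other receptors and co-receptors had 2 genes higher and 2 lower of 7 with TGF-β, shares near the 21.8% and 19.7% of all tested genes. Acvr1, a type I receptor, rose 2.38-fold, and Eng, the co-receptor endoglin, 3.64-fold. Bambi, a pseudoreceptor that dampens TGF-β signals, fell by 1.05 on the log2 scale (SE 0.19, FDR 0.0071 by edgeR), and the activin receptor gene Acvr2a by 1.04 (SE 0.27, FDR 0.0276 by edgeR). With both agents against DMSO 4 of these 7 receptor genes were called higher and 2 lower, beside 25.6% and 27.2% of all tested genes. Between the treatments 2 of the receptor genes were called, both higher, beside 6.58% of all tested genes called higher and 10.9% lower. Of 7 adaptor and co-activator genes tested, 2 were called with TGF-β, both lower, beside 19.7% of all tested genes. Dab2, an endocytic adaptor that binds SMADs, fell by 1.73 (SE 0.19, FDR 0.00123 by edgeR) and Ep300, a histone acetyltransferase, by 0.34 (SE 0.07, FDR 0.0118 by edgeR). With both agents against DMSO the falls of Dab2 (log2 -2.3, SE 0.19), Bambi (log2 -1.24, SE 0.19) and Acvr2a (log2 -0.81, SE 0.27) were again called by edgeR, and were the largest called falls in the list. None of the 7 adaptor and co-activator genes was called by edgeR between the treatments, beside 17.5% of all tested genes, and their median log2 change was 0.05. The largest in size was that of Dab2 (log2 -0.57, FDR 0.0892 by edgeR), the 1 gene of them with an unadjusted edgeR p under 0.05. DESeq2 called 1 of the 7 there, beside 27.3% of all tested genes. The other 5 tested in this role, Zfyve9, Hgs, Tgfbrap1, Trim33 and Crebbp, were called in no comparison. Inhibitors of SMAD signalling rose in 7 of 10 with TGF-β, beside 21.8% of all tested genes, among them Pmepa1 8.24-fold, Tgif1 2.32-fold and Smad7 2-fold, while Smad6 fell by 0.47 (SE 0.08, FDR 0.00646 by edgeR). Smad7 and Pmepa1 rose further once 2APB was added, by 0.39 (SE 0.08, FDR 0.0233 by edgeR) and 0.60 (SE 0.09, FDR 0.0111 by edgeR).

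Known target genes of the pathway rose in 5 of 6 with TGF-β, beside 21.8% of all tested genes. Fn1, which encodes fibronectin, rose 1.68-fold and fell by 0.33 once 2APB was added (SE 0.07, FDR 0.0306 by edgeR). Tgfbi, the exception, had deposited counts of 120 and 40 under DMSO, 12 and 8 under TGF-β, and 6 and 622 under TGF-β+2APB, and was not called. Its high library was the one in which the leukocyte markers were highest, and their part in the Tgfbi value was not tested. In the direct comparison 13 of all 49 pathway genes were called, beside 17.5% of all tested genes. Fstl3, which passed the count minimum only through treated libraries, was 1 of them, and 12 of 45 were called without Ltbp2, Fbn1, Fstl3 and Acvrl1. The number over all 49 fell with a library of DMSO or TGF-β+2APB left out and rose with one of TGF-β left out. The share of all tested genes called moved the same way.

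**Figure D4:**
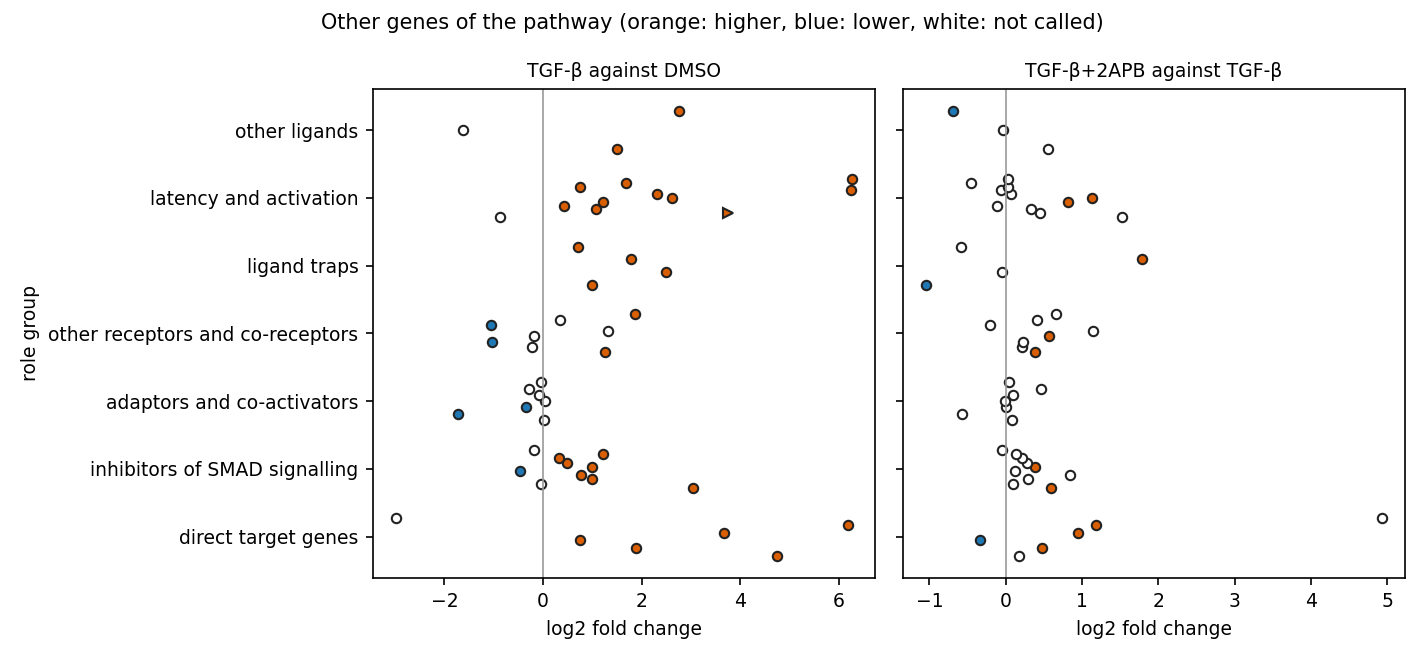
Log2 fold changes of the 49 other pathway genes tested, by role (vertical axis), for TGF-β against DMSO (left) and TGF-β+2APB against TGF-β (right), with different horizontal scales; orange points were called higher, blue lower and white not called. The triangle is Fbn1 at its lower bound of 13.4-fold, and the white point farthest right in the right panel (4.93) is Tgfbi, with 6 and 622 counts in its TGF-β+2APB replicates.

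For each of the 10 genes the tested gene with the most similar profile was taken as the one with the smallest root mean square difference of centred log2 normalized counts over the 6 libraries. Tgfb1 was closest to Smox, at a difference of 0.038, and 127 genes lay within 0.2 of it. Tgfb2 was closest to Stk17b at 0.088, which stood at 1297 and 1328 normalized counts under DMSO, 2803 and 3729 under TGF-β, and 7248 and 5641 under TGF-β+2APB, and 31 genes lay within 0.2. Inhba was closest to Npr3 and Tgfb3 to Sytl2, both at 0.16, with only 2 and 3 genes within 0.2. Smad3 was closest to Nutf2 (0.055), Tgfbr2 to Shc1 (0.03) and Tgfbr1 to Pnpt1 (0.041). Tgfbr3 had no gene within 0.2, and the closest, Gbp4 at 0.29, was also low in replicate 1 of TGF-β+2APB, at 5.939 normalized counts against 63.14 in replicate 2. The flat profiles of Smad2 and Smad4 were closest to Smpd4 and Glrx2, with 4694 and 4688 genes within 0.2. Tgfb2, Tgfb3, Inhba and Tgfbr3 were thus the members with the fewest genes within 0.2. The difference was not scaled to the size of a gene's changes or to the spread of its replicates. Flat profiles therefore have many genes within 0.2 by construction, and the ranking shows no trait beyond that.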

How the data were processed

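RNA of NMuMG cells was selected with oligo-dT and sequenced as 50 bp single-end reads. The authors aligned the reads with TopHat2 2.0.13 and counted them per gene with featureCounts. The deposited counts are raw, unscaled and all even. The submitters' processing notes give the mouse build mm10, where the methods of the paper name hg19. The annotation, strand setting and handling of multi-mapping reads are not given in the sources used here. One column per library was mapped by its title, of which 2 were misspelt.

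Counts were scaled by TMM factors to the mean library and tested with edgeR 4.0.16 (limma 3.58.1, R 4.3.3) over the 13353 genes whose normalized counts averaged 20 or more, in 1 model of the 3 groups without covariates, with Benjamini-Hochberg adjustment over all tested genes. SE is the absolute log2 change over the root of its F statistic. The common biological coefficient of variation was 17.4%. Alternatives were DESeq2 1.42.0 without a prior, RLE or library size scaling, no filter, an FDR of 0.01, the replicate number as a block, only the 4 libraries compared, halved counts, each library left out and, for levels, other lengths. Lower bounds use 3 counts per library and, like all depth limits, cover counting error only. Positions and lengths came from GENCODE on GRCm38, matched by symbol for 94.63% of entries. The members and lists were chosen with earlier results of these data known. Genes named were all members, their nearest profiles, the 3 largest called rises and falls of the pathway list per comparison, and role groups with all or none called; others were named after their values were seen, and some genes that this rule or the marker lists hold are not reported here by name. Of the pathway list, Inha, Nodal, Mstn and Acvr1c have no row, and Ctgf and Emr1 are listed under these older symbols. Tested on simulated data for TGF-β against DMSO, with 200 of 13353 genes changed by a log2 value of 1.5, the fit recovered 159 of them (79.5%) and called 16 unchanged genes. The simulation gave each gene the same spread in all groups, where the real groups differed in spread. It also changed far fewer genes than were called in the data, so it does not show the error rate there. Tables and figures were made with Python 3.11.15 (pandas 2.3.3, matplotlib 3.10.9).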

Additional observations from a re-analysis of the deposited data

How the results depend on the processing

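Of 420 values of the 10 genes under 14 other settings at an FDR of 0.05, 363 kept their direction and their side of the threshold, 34 lost a call, 13 gained one and 10 changed sign. With library size scaling the change between the treatments of Tgfbr1 was -0.02, and that of Smad2 with TGF-β+2APB against DMSO -0.02. The other sign changes came from leaving out 1 library, over which the log2 change between the treatments ran from -0.15 to 0.11 for Tgfb1, from -0.27 to 0.40 for Tgfbr1, from -3.59 to 0.29 for Tgfbr3 and from -0.10 to 0.01 for Smad2. It ran from -0.13 to 0.55 for Tgfbr1 with TGF-β against DMSO, and with TGF-β+2APB against DMSO from 0 to 0.10 for Smad2 and from -0.04 to 0.19 for Smad3. All of these were uncalled to begin with.

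The number of the 10 genes called between TGF-β+2APB and TGF-β moved by over 1.5 times, from 4 with the settings reported to 1 at an FDR of 0.01, with the replicate number as a block or with only the 4 libraries compared, where the share of all tested genes called went from 17.5% to 4.5%, 10.1% and 6.58%. Leaving out a library gave 3 to 7 called genes for TGF-β against DMSO (3 without replicate 1 or 2 of DMSO, where 20.8% and 22% of all tested genes were called), 1 to 5 between the treatments and 3 to 7 for TGF-β+2APB against DMSO. Of the 49 other pathway genes tested, 13 were called between the treatments; 3 passed an FDR of 0.01, 22 were called by DESeq2 (27.3% of all tested genes), 6 with the block, 4 with only the 4 libraries compared and 4 to 21 with a library left out. The stricter threshold and the smaller number of libraries are part of how these settings are built. For DESeq2, the block and replicate 2 of TGF-β the cause was not tested. Between the treatments and for TGF-β+2APB against DMSO, the share of all tested genes called also moved with a library left out. It fell without a library of DMSO or TGF-β+2APB and rose without one of TGF-β. The counts with a library left out thus do not set the listed genes apart from all tested genes.

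The labels number the replicates in every group without saying that a number marks a shared batch. The log2 differences between replicates had a Pearson r across 13353 genes, which are not independent, of 0.136 for the DMSO and TGF-β pairs, -0.429 for DMSO with TGF-β+2APB, and -0.258 for the treated groups. Exchanging the numbers of the TGF-β+2APB pair would make the negative values positive. Whether libraries share a batch under other numbers was not tested, and the main model used no pairing. The replicate block gave 5, 1 and 5 of the 10 genes called for TGF-β against DMSO, between the treatments and for TGF-β+2APB against DMSO. It gave 30, 6 and 32 of the 49 other pathway genes, Ltbp2, Fbn1, Fstl3 and Acvrl1 included. The shares of all tested genes called were 35.5%, 10.1% and 47.6%. Exchanging the numbers of the TGF-β+2APB pair in this block, an alternative chosen after the data had been seen, gave 6, 3 and 5 of the 10 genes and 34, 17 and 36 of the others, beside 42.7%, 18.5% and 54.2%.

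Shares depend on the length used. With the length of the longest transcript the Tgfb1 share in DMSO, TGF-β and TGF-β+2APB was 82.8%, 89.8% and 80.4%, that of Tgfb2 10.6%, 9.62% and 18.5%, and that of Tgfb3 6.54%, 0.589% and 1.06%. Without length scaling the Tgfb2 share in DMSO was 18.8%, that of Tgfb3 was 7.63%, 0.706% and 1.17%, and the ratio of Smad3 to Smad2 was 2.08, 3.21 and 2.13. Depth limits the values of Tgfbr3, which had 2 to 32 counts in the treated libraries.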
